A study of Homo sapiens with 4 samples.

Results

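The 37 genes described here encode lysosomal proteases, other lysosomal enzymes and their cofactors, lysosomal membrane proteins, the transcription factors TFEB and TFE3, and proteins that build autophagosomes. They were chosen by name, matched by Ensembl identifier to 37 of the 50653 rows of an expression table, and every one of them was among the 14321 genes with a mean of at least 1 FPKM (fragments scaled to transcript length and library size) that were tested. The table came from RNA sequencing of BT-20 and MDA-MB-468 cells, established human triple-negative breast cancer lines, in which QPRT (quinolinate phosphoribosyltransferase, an enzyme of NAD+ synthesis from tryptophan) was silenced. Each line carried either a control hairpin or one targeting QPRT, both delivered by a lentiviral vector (pLKO.1-puro for the QPRT hairpin) with puromycin selection, so cells of the control libraries were transduced too. There was 1 library for each line and shRNA, 4 in all, and the comparisons asked whether the 37 genes differed with QPRT shRNA within a line and between the lines. CTSB was picked by the study for display on these same libraries, so its direction here is not independent evidence.

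Lysosomes are acidic organelles in which cathepsins, glycosidases and lipases degrade material delivered by endocytosis and autophagy. Most soluble enzymes are sorted there by mannose 6-phosphate tags, and heavily glycosylated membrane proteins such as LAMP1 and LAMP2 line the organelle. In autophagy, the ULK1 kinase and the BECN1 lipid kinase complex start a membrane, WIPI1 and ATG9A help it grow, ATG7 and ATG5 attach ATG8 proteins (MAP1LC3B, GABARAPL1, GABARAPL2) to it, and SQSTM1 brings in cargo. TFEB and TFE3 activate many of these genes through a DNA element called CLEAR.

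QPRT was at 249 FPKM in BT-20 with control shRNA and 40.5 FPKM with QPRT shRNA, and at 117 and 18.3 FPKM in MDA-MB-468, in the direction of the labels in both lines. Whole fragments could be recovered from the FPKM and came to between 10321996 and 10945948 per library. The epithelial genes EPCAM (148 to 359 FPKM) and KRT8 (1548 to 4214 FPKM) were high and the progesterone receptor gene PGR was listed at 0 in every library, while ESR1 was at 1.05 to 5.76 FPKM. ERBB2, the third receptor gene of the triple-negative definition, was not low, at 129 and 122 FPKM in BT-20 and 58.1 and 50.7 FPKM in MDA-MB-468. KRT18 (436 to 1355 FPKM), KRT5 (265 to 983 FPKM) and EGFR (179 to 951 FPKM) were high. KRT17 was at 2.76 and 2.51 FPKM in BT-20 but 237 and 373 FPKM in MDA-MB-468. Of 10 macrophage and dendritic cell markers, 7 were under 1 FPKM in all 4 libraries and AIF1 and CD1C were listed at 0. Summed levels of 10 intestinal markers were 40.9 FPKM with control and 16.0 FPKM with QPRT shRNA for BT-20, then 101 and 18.7 FPKM in MDA-MB-468. Summed gastric markers (8 genes, 22.7 and 6.66 FPKM in BT-20, 48.6 and 6.99 FPKM in MDA-MB-468) and plasma cell markers (5 genes, 32.5 and 15.2, then 76.3 and 15.1 FPKM) were also lower with QPRT shRNA in both lines. The source of these reads and their part in the results that follow were not tested. For the member levels, as in any bulk library, fewer cells of a type and less RNA per cell cannot be told apart.

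Transcripts of this group were abundant. Summed over the 37 genes, the level was 5160 FPKM in BT-20 with control shRNA, 5638 FPKM in BT-20 with QPRT shRNA, 3448 FPKM in the MDA-MB-468 control library and 3699 FPKM in MDA-MB-468 with QPRT shRNA. PSAP, the precursor of the saposins that help break down sphingolipids, was the largest contributor in BT-20. It made up 21.2% and 25.9% of the summed level there and 13.4% and 12.9% in MDA-MB-468. In MDA-MB-468, CTSB ranked 3 among the 37 with control shRNA and 1 with QPRT shRNA, against rank 19 in both BT-20 libraries. The lowest members were CTSS, a cathepsin best known from antigen-presenting cells, and LAMP3, a lysosomal membrane protein of dendritic cells, the only members with a mean under 5 FPKM.

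**Figure D1:**
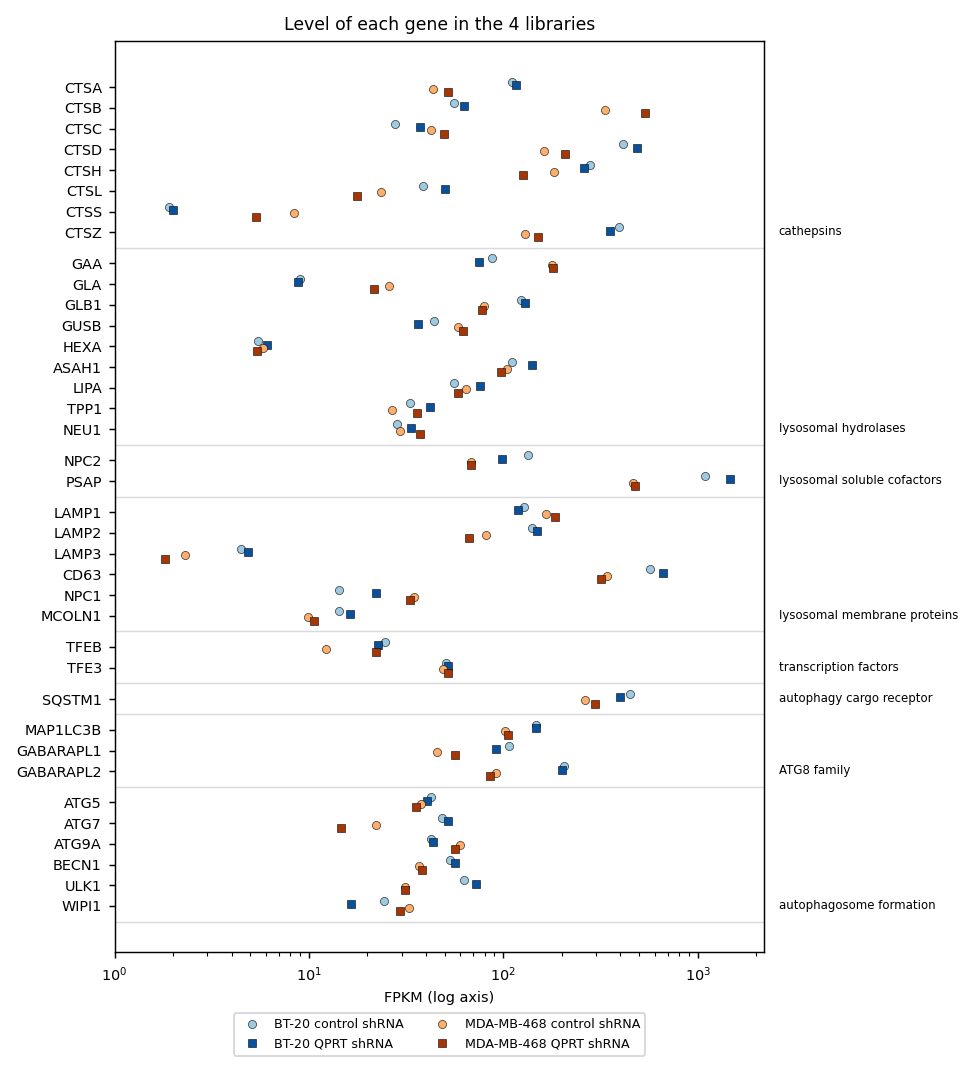
Level of each of the 37 genes in FPKM (log axis) in the 4 libraries, grouped by role, with 1 point per library. PSAP lies at the right in BT-20 (1091 and 1461 FPKM), CTSB in the MDA-MB-468 libraries (332 and 535 FPKM) lies far from its BT-20 points (55.6 and 62.9 FPKM), and CTSS and LAMP3 lie at the left.

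With QPRT shRNA no member differed by 2-fold in either line, on the scale of log2(FPKM + 1) used for every difference below. Over all genes tested, 1.7% differed by 2-fold in BT-20 cells and 1.89% in MDA-MB-468. At 1.5-fold, NPC1 was past the threshold in BT-20 (1 of 37 members against 8.98% of all genes) and CTSB and TFEB in MDA-MB-468 (2 of 37 against 9.17%). The median member difference was 0.07 in BT-20, with 24 members higher and 13 lower, beside a median of 0.05 over all genes. In MDA-MB-468 it was 0.0027, with 20 members higher and 17 lower, beside 0.011 over all genes. With 1 library per group there is no test within a line, and the 95% exact binomial intervals given for a log2 ratio of fragments cover counting error only.

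CTSB encodes cathepsin B, a cysteine protease (ENSG00000164733, chromosome 8 from 11842524 to 11869448, minus strand, GRCh38). It was at 55.6 FPKM in BT-20 with control shRNA, 62.9 FPKM in BT-20 with QPRT shRNA, 332 FPKM in the MDA-MB-468 control library and 535 FPKM in MDA-MB-468 with QPRT shRNA. The QPRT shRNA library was the higher of the pair in both lines, by 0.17 in BT-20 (1.13-fold) and by 0.69 in MDA-MB-468 (1.61-fold). Its interval ran from 0.02 to 0.34 in BT-20, on 589 and 684 fragments, and from 0.63 to 0.75 in MDA-MB-468, on 3626 and 5506 fragments. Across both lines, limma gave a difference of 0.43 with a standard error of 0.19, an unadjusted p of 0.0271 and a Benjamini-Hochberg adjusted p of 0.844. The 10 macrophage and dendritic cell markers summed to 12.6, 12.6, 28.5 and 33.9 FPKM in the same order of libraries. Of those above 1 FPKM, CD14 went from 15.4 to 26.1 FPKM in MDA-MB-468, CSF1R from 6.43 to 5.02 FPKM and CD74 from 5.95 to 2.35 FPKM, while PTPRC, the pan-leukocyte marker, was between 0.057 and 0.34 FPKM in the 4 libraries. The part of such cells in the CTSB difference was not tested.

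The other cathepsins did not share one direction. CTSC, which activates granule serine proteases, was at 27.8, 37.3, 42.4 and 49.3 FPKM (BT-20 control, BT-20 QPRT, MDA-MB-468 control and MDA-MB-468 QPRT shRNA, the order used from here on). CTSD, the main aspartic protease of the lysosome, was at 414, 489, 162 and 207 FPKM. Both were higher with QPRT shRNA in each line, CTSC by 0.41 and 0.21 and CTSD by 0.24 and 0.35, with intervals above 0. CTSH, an aminopeptidase, was at 278, 260, 183 and 126 FPKM, a difference of -0.10 in BT-20 cells and -0.54 in MDA-MB-468. It was the only one of the 37 with intervals below 0 in both lines, the BT-20 interval ending at -0.022. CTSL, a cysteine endopeptidase, was at 38.4, 49.8, 23.6 and 17.6 FPKM, higher by 0.37 in BT-20 cells and different by -0.40 in MDA-MB-468. CTSZ, a carboxypeptidase, showed the opposite pair of directions, at 393, 355, 129 and 151 FPKM. CTSS was at 1.91, 1.996, 8.37 and 5.31 FPKM, and its difference of -0.57 in MDA-MB-468 rests on 122 and 73 fragments. This was past 1.5-fold by the log2 ratio of fragments (-0.66) and with upper quartile scaling (-0.59). CTSA, the protective protein of beta-galactosidase and neuraminidase, differed by 0.07 and 0.25. Of the 8 cathepsins, 6 were higher with QPRT shRNA in BT-20 cells and 5 in MDA-MB-468, with medians of 0.12 and 0.22. The shares of all genes that were higher were 56.4% and 51.5%.

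Summed cathepsin transcripts were 1320, 1371, 924 and 1142 FPKM in the 4 libraries. The make-up of that sum differed more between the lines than its size. CTSB was 4.21% and 4.59% of it in BT-20 but 36.0% and 46.9% in MDA-MB-468. CTSD went the other way, at 31.4% and 35.6% in BT-20 cells and 17.5% and 18.1% in MDA-MB-468. CTSZ had the same pattern as CTSD, at 29.8% and 25.9% against 14.0% and 13.2%. Within MDA-MB-468, the share of CTSH was 10.99% with QPRT shRNA against 19.8% with control shRNA.

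**Figure D2:**
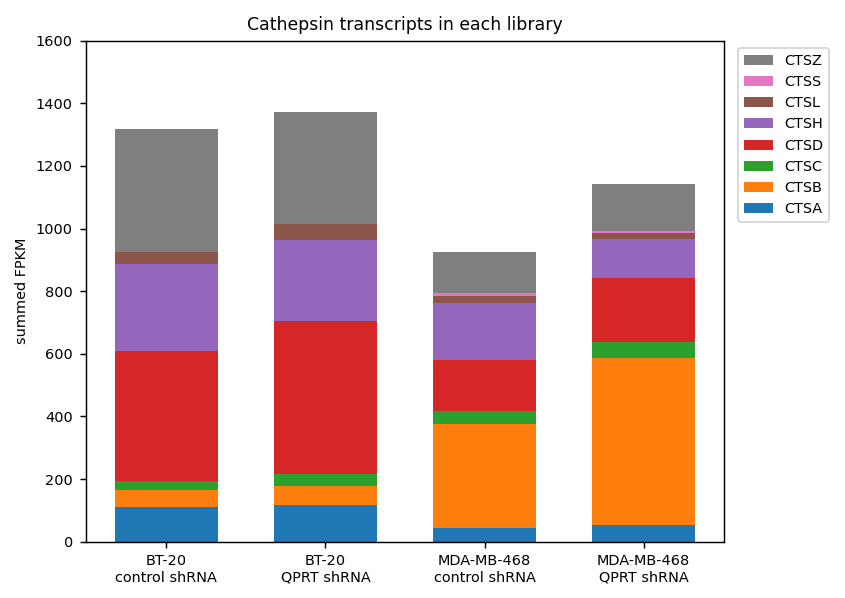
Summed FPKM of the 8 cathepsins in each library, stacked by gene, on an axis from 0. CTSB fills 36.0% and 46.9% of the MDA-MB-468 bars and under 5% of the BT-20 bars, where CTSD and CTSZ are the largest segments.

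Among the other soluble proteins, the 9 hydrolases had medians of 0.14 in BT-20 (6 higher) and -0.04 in MDA-MB-468 (4 higher). Over all genes, 56.4% and 51.5% were higher. TPP1, a tripeptidyl peptidase, was at 32.9, 42.1, 26.6 and 35.9 FPKM, and NEU1, the lysosomal sialidase, at 28.4, 33.5, 29.2 and 37.1 FPKM. These were the only hydrolases whose intervals lay above 0 in both lines, with differences of 0.35 and 0.42 for TPP1 and 0.23 and 0.33 for NEU1. The lipid enzymes LIPA (acid lipase, 55.8, 75.7, 64.6 and 58.4 FPKM) and ASAH1 (acid ceramidase, 111, 140, 105 and 97.1 FPKM) were higher in BT-20 with QPRT shRNA, by 0.43 and 0.34, and differed by -0.14 and -0.11 in MDA-MB-468. The remaining glycosidases GAA, GLA, GLB1, GUSB and HEXA differed by between -0.27 and 0.14. The 2 cofactors differed in opposite directions in BT-20. PSAP was higher by 0.42 in BT-20 (1091 and 1461 FPKM) and by 0.04 in MDA-MB-468 (463 and 475 FPKM). NPC2, which carries cholesterol inside the lysosome, differed by -0.43 in BT-20 (133 and 98.2 FPKM) and by 0.00 in MDA-MB-468 (68.1 and 68.3 FPKM).

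The membrane proteins were led by NPC1, the transporter that takes cholesterol over from NPC2 (ENSG00000141458, chromosome 18 from 23506184 to 23586898, minus strand, GRCh38). NPC1 was at 14.3, 22.2, 34.8 and 33.1 FPKM, on 220, 352, 553 and 496 fragments. It was 1.52-fold higher with QPRT shRNA in BT-20, a difference of 0.61 with an interval from 0.39 to 0.89, and differed by -0.07 in MDA-MB-468 with an interval from -0.25 to 0.11. NPC1 lay close to the 1.5-fold threshold and was not past it with upper quartile scaling (0.58) or with trends on GC content and length removed (0.54). LAMP2, whose isoforms include the receptor of chaperone-mediated autophagy, was at 140, 148, 81.8 and 66.2 FPKM, with differences of 0.09 and -0.30. LAMP1 had the reverse directions, at 128, 119, 165 and 185 FPKM, with differences of -0.10 and 0.16. CD63, a tetraspanin of late endosomes and exosomes, differed by 0.22 and -0.10. LAMP3 and the calcium channel gene MCOLN1 had intervals that spanned 0 in both lines. Of the 6, 5 were higher with QPRT shRNA in BT-20 cells and 2 in MDA-MB-468, beside 56.4% and 51.5% of all genes.

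TFEB, a master regulator of lysosome genes (ENSG00000112561, chromosome 6 from 41683978 to 41736259, minus strand, GRCh38), had the largest difference with QPRT shRNA within a line of any member, in MDA-MB-468. It was at 24.6, 22.7, 12.2 and 22.1 FPKM, on 345, 326, 176 and 301 fragments. The MDA-MB-468 control library was the low one, and the other 3 lay close together. The difference with QPRT shRNA was -0.12 in BT-20, with an interval from -0.34 to 0.10, and 0.81 in MDA-MB-468 (1.75-fold), with an interval from 0.59 to 1.14. In limma over both lines TFEB had a difference of 0.35, a standard error of 0.23, an unadjusted p of 0.136 and a Benjamini-Hochberg adjusted p of 1.00. Its relative TFE3 was nearly level, at 50.5, 51.9, 48.9 and 51.7 FPKM.

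Since TFEB and TFE3 bind CLEAR elements, promoters of the members were searched for TCACGTGA, the core of that element, and for the E-box CACGTG that it contains. Both read the same on either strand. RefSeq promoters (GRCh38.p14, 250 bases before to 50 after the start) were found for 30 of the 37 members, all but CTSB, CTSS, HEXA, ASAH1, PSAP, LAMP2 and LAMP3. The core was in 4 of 30 (13.3%), against 1.94% of 10533 promoters of genes tested and 0.980% of all 35116, and the E-box in 7 of 30 (23.3%), against 10.02% and 7.26%. The members were chosen by name as lysosomal and autophagy genes, so these shares describe the list and not a response to QPRT shRNA. The members with a core were CTSA, GAA (acid alpha-glucosidase), LAMP1 and MCOLN1, and CD63, CTSD and NEU1 had an E-box alone. The stretches that hold the cores upstream of the start are printed to show the element in its context, 5′ to 3′ on the plus strand, with the core in capitals. They lie at chr20:45891283-45891334 for CTSA, chr17:80101478-80101580 for GAA, chr13:113297184-113297238 for LAMP1 and chr19:7522556-7522623 for MCOLN1.
CTSA: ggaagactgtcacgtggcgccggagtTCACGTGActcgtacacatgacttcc
GAA: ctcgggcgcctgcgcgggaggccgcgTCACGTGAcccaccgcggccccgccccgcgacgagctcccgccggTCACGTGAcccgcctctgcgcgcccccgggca
LAMP1: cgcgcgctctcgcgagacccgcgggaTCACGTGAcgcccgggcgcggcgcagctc
MCOLN1: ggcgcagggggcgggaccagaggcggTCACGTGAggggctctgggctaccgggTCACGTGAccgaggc
The first base of the core lies 26 bases before the start in CTSA, 77 and 32 in GAA, 29 and 2 in LAMP1, and 42 and 15 in MCOLN1. The core of LAMP1 that begins 2 bases before the start runs past the end of the printed stretch and is not in capitals. With QPRT shRNA these 4 genes differed in MDA-MB-468 by between 0.03 and 0.25, all higher, with a median of 0.13, but 2 of them, GAA (-0.14) and MCOLN1 (-0.06), were lower once trends on GC content and length were removed. In BT-20, 2 were higher and 2 lower, with a median of -0.02. The 7 members with an E-box, the core included, had a median of 0.18 in BT-20 (5 higher) and 0.16 in MDA-MB-468 (6 higher), beside 0.0045 and 0.0021 for the 23 without (12 higher in each line). With the trends removed, 4 of the 7 (median 0.13) and 8 of the 23 (median -0.05) were higher in MDA-MB-468. In BT-20, 5 of the 7 (median 0.15) and 13 of the 23 (median 0.03) were then higher. The same split was not made over all genes, so these values describe the members alone.

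None of the autophagy members was past 1.5-fold with QPRT shRNA in either line on log2(FPKM + 1). ATG7 in MDA-MB-468 passed it by its log2 ratio of fragments (-0.60), with upper quartile scaling (-0.60) and with trends on GC content and length removed (-0.59). SQSTM1, the cargo receptor also called p62, was at 447, 396, 264 and 295 FPKM, with differences of -0.17 in BT-20 cells and 0.16 in MDA-MB-468. GABARAPL1 had the same pair of directions, at 107, 92.1, 45.4 and 56.5 FPKM, with differences of -0.21 and 0.31. MAP1LC3B, the usual marker of autophagosomes, was at 146, 147, 102 and 105 FPKM, and GABARAPL2 at 204, 199, 91.9 and 85.6 FPKM, with intervals spanning 0 in both lines. ATG7, the E1-like enzyme that activates ATG8 proteins, was at 48.5, 52.0, 22.2 and 14.6 FPKM. Its difference was 0.10 in BT-20 cells and -0.57 in MDA-MB-468, where the interval ran from -0.92 to -0.29 on 224 and 139 fragments. WIPI1, which binds phosphatidylinositol 3-phosphate, differed by -0.53 in BT-20 (24.2 and 16.4 FPKM) and by -0.15 in MDA-MB-468 (32.6 and 29.4 FPKM). ULK1, at 63.1 and 72.4 FPKM in BT-20, was level in MDA-MB-468 at 31.3 FPKM in both libraries. BECN1, ATG5 and ATG9A had intervals that spanned 0 in both lines.

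Counted by interval, 13 members lay above 0 in BT-20 cells and 9 below, against 26.8% and 16.7% of the 14232 genes with recovered fragments. In MDA-MB-468, 11 lay above 0 and 8 below, against 22.9% and 21.1%. The 5 members above 0 in both lines were CTSB, CTSC, CTSD, TPP1 and NEU1, against 4.97% of genes. CTSH alone of the 37 lay below 0 in both, against 3.32%. In BT-20 the CTSB interval began at 0.0160 and the CTSH interval ended at -0.022. Upper quartile scaling shifted BT-20 by -0.0215, toward 0 for CTSB and away from it for CTSH. With trends on GC content and length removed, CTSH differed by -0.0025 there and CTSB by 0.28. Intervals were not taken under other scalings, so both calls hold for the scaling used. Intervals on opposite sides of 0 in the 2 lines were found for 9 members, against 14.5% of genes. CTSL, ASAH1, LIPA, LAMP2 and CD63 were higher with QPRT shRNA in BT-20 cells and lower in MDA-MB-468, and CTSZ, LAMP1, SQSTM1 and GABARAPL1 the reverse. GC content was 39.9% to 53.1% in the first set and 52.6% to 61.1% in the second. The rank correlation (Spearman's rho) of the QPRT shRNA difference with GC content had opposite signs in the cell lines. Among the 37 members rho was -0.20 for BT-20 and 0.57 for MDA-MB-468, against -0.27 and 0.28 over 14232 genes. The cause of this correlation was not tested. An interval leaves out 0 more readily the more fragments a gene has. Of the 14321 genes tested, 10423 had a mean of at least 5 FPKM, as did all members but CTSS and LAMP3. The shares of genes by interval were not matched for depth to the members. By sign alone, 12 members were higher in both lines (26.2% of all genes tested), 5 lower in both (17.7%) and 20 opposite (54.6%). These directions depended on the scaling in part. With trends on GC content and length removed, 8 were higher and 9 lower in both lines, 9 signs changed in MDA-MB-468 and 3 in BT-20 (CTSS, CTSZ and LAMP2), and CTSB differed by 0.28 in BT-20 cells and 0.57 in MDA-MB-468, then under 1.5-fold.

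**Figure D3:**
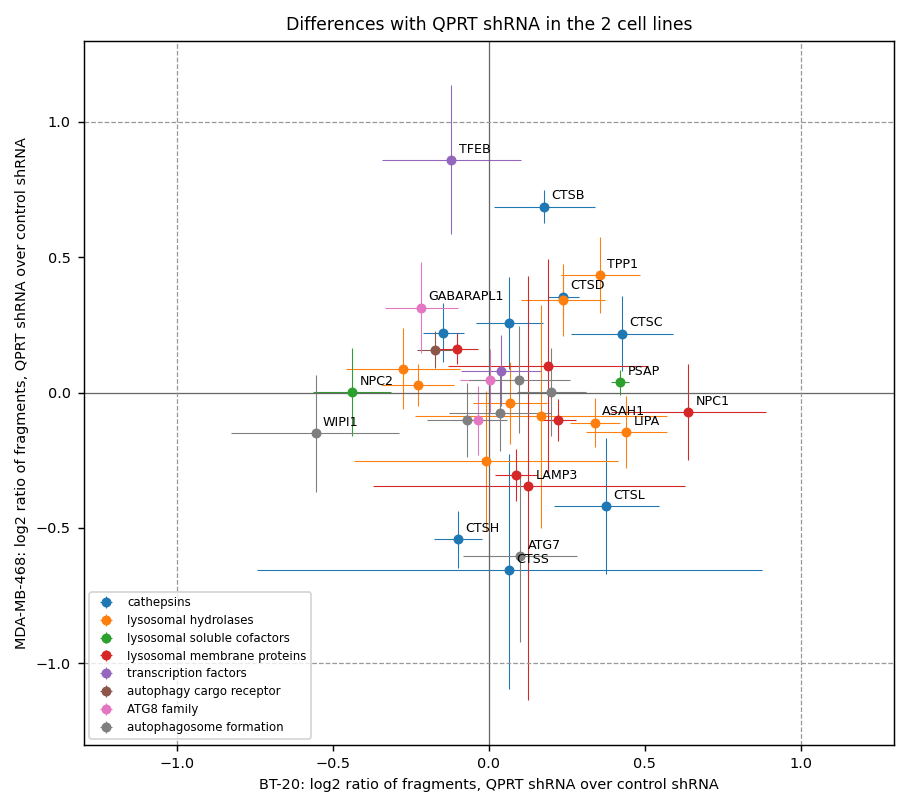
Log2 ratio of fragments, QPRT over control shRNA, in BT-20 (x axis) and MDA-MB-468 (y axis), 1 point per gene coloured by role, with 95% exact intervals for counting error and dashed lines at 2-fold. All 37 points lie inside the dashed lines, TFEB and CTSB stand highest on the y axis and NPC1 farthest right.

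Over both lines together, limma with a block for the line called 0 of the 37 members for QPRT shRNA at a Benjamini-Hochberg adjusted p under 0.05, against 0.628% of all genes. At an unadjusted p under 0.05 it named 1 member, CTSB, against 4.8% of all genes. Limma-voom on recovered fragments also called 0 after adjustment, with an adjusted p of 0.916 for its leading member CTSB. Each gene had 1 residual degree of freedom and borrowed its spread from all genes. As nothing says the libraries came from separate cultures, the p-values measure only the spread between these libraries.

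The cell lines differed far more than the shRNAs did. In the limma fit, the control and QPRT shRNA libraries of a line stood in for replicates of that line. Its p-values between the lines therefore measure only the spread between these libraries. By that fit, 27 of the 37 members had a Benjamini-Hochberg adjusted p under 0.05 between MDA-MB-468 and BT-20. Of these, 9 were higher in MDA-MB-468, against 30.7% of all genes, and 18 were lower, against 24.4%. The median member difference, MDA-MB-468 minus BT-20, was -0.51 between the control libraries and -0.48 between the QPRT shRNA libraries, beside 0.12 and 0.07 over all genes. Signs were the same with both shRNAs for 35 members, 11 higher and 24 lower, the exceptions being HEXA and LIPA. The lines were grown in different media, BT-20 in Eagle's minimum essential medium and MDA-MB-468 in Leibovitz L-15 medium, so line and medium cannot be told apart.

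At least a 2-fold difference with both shRNAs was seen for 4 members higher in MDA-MB-468, against 13.3% of all genes, and for 6 lower, against 9.99%. CTSB was 5.89-fold and 8.39-fold higher, with a limma difference of 2.81, a standard error of 0.19 and an adjusted p of 2.5e-45, and its MDA-MB-468 values (332 and 535 FPKM) lay far above those in BT-20. CTSS, at 1.91 and 1.996 against 8.37 and 5.31 FPKM, rose by 1.38 (SE 0.28, adjusted p 3.91e-06). GAA, which degrades glycogen, rose by 1.13 (SE 0.20, adjusted p 5.88e-08), from 87.8 and 74.9 FPKM to 177 and 181 FPKM. GLA, alpha-galactosidase A, rose by 1.32 (SE 0.24, adjusted p 2.35e-07), from 8.95 and 8.82 FPKM to 25.8 and 21.7 FPKM.

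The 6 members that were lower span several roles. PSAP fell by 1.43 (SE 0.19, adjusted p 2.24e-13), from 1091 and 1461 FPKM in BT-20 to 463 and 475 FPKM in MDA-MB-468. Among cathepsins, CTSZ fell by 1.42 (adjusted p 1.49e-12), CTSD fell by 1.296 (adjusted p 7.77e-11) and CTSA fell by 1.23 (adjusted p 9.51e-09), CTSA from 110 and 116 FPKM to 43.4 and 51.9 FPKM. In autophagy, ATG7 fell by 1.43 (SE 0.22, adjusted p 7.95e-10) and GABARAPL2 fell by 1.18 (SE 0.20, adjusted p 1.26e-08). These are limma values with Benjamini-Hochberg adjustment.

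By role, the cathepsins were split, with CTSB, CTSC and CTSS higher in MDA-MB-468 and the other 5 lower, each past the limma threshold. Of the glycosidases, GAA, GLA and GUSB were higher and GLB1 lower, while HEXA and the enzymes ASAH1, LIPA, TPP1 and NEU1 did not pass. Both cofactors were lower. LAMP1 and NPC1 were higher, LAMP2, LAMP3 and CD63 lower, and MCOLN1 did not pass (adjusted p 0.0512). TFEB (adjusted p 0.0582) and TFE3 did not pass either, and TFEB was 12.2 FPKM against 24.6 FPKM between the control libraries but 22.1 against 22.7 FPKM between the QPRT shRNA libraries. SQSTM1, all 3 ATG8 members, ATG7, BECN1 and ULK1 were lower and WIPI1 was higher, while ATG5 and ATG9A did not pass.

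**Figure D4:**
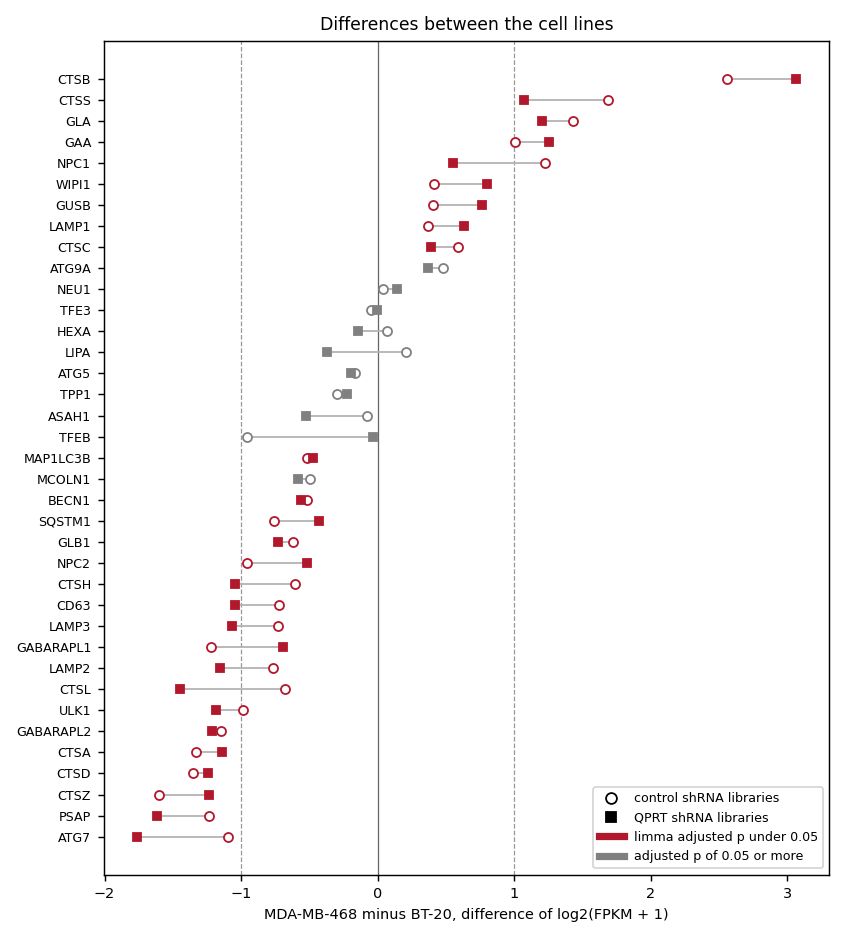
MDA-MB-468 minus BT-20 difference of log2(FPKM + 1) for each gene, open circles for the control shRNA libraries and squares for the QPRT shRNA libraries, in red where the limma adjusted p was under 0.05, with dashed lines at 2-fold. CTSB lies far to the right of all others at 2.56 and 3.07, and PSAP, CTSZ and ATG7 lie at the left end.

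The ATG8 transcripts summed to 459, 440, 239 and 248 FPKM. GABARAPL2 made up 44.5% and 45.4% of them in BT-20 cells and MAP1LC3B 42.6% and 42.4% in MDA-MB-468. GABARAP itself, no member but part of this sum, was at 0.241% or less in every library, and 55.7% of its exon bases are shared with another gene. Reads in such overlaps can be lost in counting, so this low level is uncertain, and with it the ATG8 sum and the shares of it. Among members, over 10% of exon bases are shared for CTSA, CTSD, GLB1, HEXA, TPP1, SQSTM1, ATG7, ATG9A, BECN1 and WIPI1, highest for CTSD at 52.7%, and their levels carry the same limit.

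Beyond the members, 129 further genes of lysosomes and autophagy were listed, of which 119 were tested. With QPRT shRNA 0 of them differed by 2-fold in either line, with medians of 0.10 in BT-20 cells and 0.05 in MDA-MB-468. At 1.5-fold, 6 were higher and 1 lower in BT-20, and 2 were higher and 1 lower in MDA-MB-468. Over all genes, 8.98% and 9.17% were past 1.5-fold in either direction, and the listed genes stood below both shares. Limma called 0 after Benjamini-Hochberg adjustment, against 0.628% of all genes. At an unadjusted p under 0.05 it named 2, the protease gene CTSF and AGA, against 4.8% of all genes. The 16 tested subunits of the vacuolar ATPase, the proton pump that acidifies the lysosome, had medians of 0.05 and 0.03, and none reached 1.5-fold. The 11 tested genes of sorting to the lysosome had medians of 0.13 and 0.18, with 1 at 1.5-fold in BT-20, IGF2R, the larger mannose 6-phosphate receptor, at 38.2 and 58.9 FPKM, which the study also picked for display on these libraries. Of 20 regulators of mTORC1 and the TFEB family, against 8.98% of all genes in either direction, 2 were 1.5-fold higher in BT-20. This count is near the share of all genes. The 2 were RRAGD (2.99 and 5.59 FPKM), a GTPase that recruits TFEB to lysosomes, and FNIP2 (6.16 and 11.5 FPKM), a partner of folliculin. In MDA-MB-468 neither reached 1.5-fold, and FNIP2 went the other way. RRAGD was at 6.88 and 8.54 FPKM there and FNIP2 at 10.3 and 7.87 FPKM. Between the lines, 25 of the 119 were higher in MDA-MB-468 and 29 lower by limma at an adjusted p under 0.05, against the 30.7% and 24.4% of all genes given above.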

How the data were processed

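RNA sequencing was done on 4 libraries, 1 per cell line and shRNA. The authors deposited one table of FPKM per gene, without counts. The submitters' processing notes name CASAVA, FastQC, MultiQC, TopHat2 2.0.12 and HTSeq 0.6.1, and the genome build was not given in the sources used here. Fragments were recovered from the deposited FPKM and each gene's mean GENCODE v29 transcript length, by finding the library total at which values of single-transcript genes came closest to whole numbers. Among single-transcript genes, 97.6% to 97.8% of values came out whole within 0.02, and 87.3% to 87.6% among all genes. All 4 values were whole for 29 of the 37 members, and the fragments of the other 8 (CTSA, CTSD, CTSH, GLA, ASAH1, TPP1, ATG5 and ATG9A) were rounded, so their intervals are approximate. Differences were taken on log2(FPKM + 1), which understates changes of low genes. Genes with a mean of at least 1 FPKM were tested with limma 3.58.1 (R 4.3.3), with a variance trend, cell line and shRNA in one fit, and Benjamini-Hochberg adjustment over all 14321 genes. Counting intervals are exact (Clopper-Pearson, 95%, scipy 1.17.1). The fit was tested on simulated data for the QPRT shRNA comparison, where it recovered 100% of 200 genes changed 4-fold among 14232. Of its calls there 9.50% were false, and 0.498% of calls among 12792 genes with at least 100 fragments over the 4 libraries. The changed genes had at least 200 fragments in every library and were changed the same way in both lines. Noise was drawn independently for each library, so shRNA differences that vary by line were not simulated. The simulation therefore cannot say how often smaller changes, or changes opposite in the 2 lines, are recovered. Gene coordinates and exon overlaps came from GENCODE on GRCh38 and promoters from RefSeq on GRCh38.p14.

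The members and lists were chosen with earlier results of these data known. Values in every library were given for CTSB, for members past 1.5-fold with QPRT shRNA, for members at least 2-fold different between the lines with both shRNAs and an adjusted p under 0.05, and for up to 5 members with opposite intervals (CTSL, LIPA, LAMP2, SQSTM1 and GABARAPL1). Other members and pathway genes given with values were chosen after their values were seen. Alternatives were another pseudocount (0.1), upper quartile and TPM scaling, other filters, removal of GC content and length trends, a 1.5-fold threshold, no block, no variance trend and limma-voom. Protein sequences were not analysed here.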

Additional observations from a re-analysis of the deposited data

Results flagged for a closer look

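Members were set apart for a closer look where QPRT shRNA went with opposite directions in the 2 lines and each counting interval left out 0. With 1 library per group, the difference between the lines was not tested, and no sample group was large enough for a search for outlying samples. The values are the log2(FPKM + 1) difference with QPRT shRNA in MDA-MB-468 minus that in BT-20. Among enzymes the value was -0.77 for CTSL, 0.37 for CTSZ, -0.45 for ASAH1 and -0.58 for LIPA. Among membrane proteins it was 0.26 for LAMP1, -0.39 for LAMP2 and -0.32 for CD63. In autophagy it was 0.33 for SQSTM1 and 0.52 for GABARAPL1. With trends on GC content and length removed, CTSZ differed by 0.02 in BT-20 and LAMP2 by -0.16 in both lines, so neither had opposite directions. SQSTM1 then differed by -0.06 and 0.02, ASAH1 by 0.15 and -0.0080, and LIPA by 0.30 and -0.05. CTSL, LAMP1, CD63 and GABARAPL1 had opposite directions there too, with 0.35 and -0.42 for CTSL, -0.20 and 0.13 for LAMP1, 0.34 and -0.19 for CD63, and -0.17 and 0.25 for GABARAPL1. Over all genes, 14.5% had intervals on opposite sides of 0, a share not matched for depth to the members.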

How the results depend on the processing

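No library could be left out within a comparison, since each group held 1. At 1.5-fold in place of 2-fold, 23 members differed between the control libraries of the 2 lines (12 at 2-fold). With QPRT shRNA, 1 member in BT-20 cells and 2 in MDA-MB-468 were past 1.5-fold (0 at 2-fold). The shares of all genes past 1.5-fold with QPRT shRNA were 8.98% and 9.17%. In MDA-MB-468 the count at 1.5-fold was 4 with a pseudocount of 0.1, and also after upper quartile or TPM scaling, and 3 with GC content and length trends removed. In BT-20 it was 0 after upper quartile scaling and with those trends removed. No share over all genes was taken for the control library counts or for these alternatives at 1.5-fold. Those counts therefore describe the members alone. The median member difference in MDA-MB-468, 0.0027 as given, was -0.0215 with upper quartile scaling, -0.0178 when scaled to TPM and -0.0483 with GC content and length trends removed. The limma count between the lines, 27, was 17 with no filter on low values, the only alternative that moved it by over 1.5 times. Over all genes, the line calls were 7893 of 14321 as given and 5686 of 28429 with no filter. For QPRT shRNA limma called 0 members under every alternative run, with a lowest adjusted p between 0.768 and 1.00. Without the cell line as a replicate block it also called 0. Without the shRNA block, 28 members were called between the lines, beside 7714 of all 14321 genes. Over all genes, the QPRT shRNA calls were 90 as given, 64 with limma-voom, 1 with the GC content and length trends removed, and 0 with no filter or with no replicate block. CTSB in MDA-MB-468 differed by 0.57 with the GC content and length trends removed. The cause of these shifts was not tested. The depth limits CTSS and LAMP3 most, with 26 to 122 fragments per library.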
